A study of Homo sapiens with 11 samples.

Results

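The 42 genes described here are transcribed at known stages of the cell division cycle. They were fixed as 2 lists of symbols, 22 genes of S phase, when DNA is copied, and 20 genes of G2 and mitosis, when chromosomes condense and separate. All 42 symbols were found among the 36601 genes of the count tables. By droplet single-cell RNA sequencing, the study compared 3 groups on day 42.5, all made from H9, an established line of human embryonic stem cells. One group was grown as a 2D culture, and the other groups were chambered heart organoids (cardioids) that either were or were not treated with PD173074, an inhibitor of FGF receptors. The labels give neither the dose nor the time of PD173074.

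The cell cycle genes are expressed in waves. In resting cells the RB family and the DREAM complex keep them silent. E2F factors switch on the S-phase wave, which supplies the MCM helicase, the sliding clamp PCNA and the enzymes that make nucleotides. The MuvB complex with B-MYB and FOXM1 switches on the later wave, which supplies cyclin B, CDK1, the mitotic kinases and the proteins of spindle and chromosome. Heart muscle cells divide in the embryo and largely stop after birth, and an S phase without a following mitosis is a known state of maturing cardiomyocytes.

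The bases in front of the genes differed between the lists in most matched members. RefSeq start sites of build GRCh38.p14 were matched for 34 members, 18 of S phase and 16 of G2 and mitosis. In windows from 250 bases before to 50 bases after each start, 3 motifs were searched on both strands: the cell cycle homology region (CHR, bound by MuvB), the CCAAT box (bound by NF-Y) and the E2F site. The letters of the CHR were TTTGAA. An E2F site was any of 3 words, the first of which was GCGGGAA. The next word was GCGCGAA. The last was GCGCCAA. The CHR letters were present in 11 of 16 G2 and mitosis members and in 0 of 18 S-phase members, against 18.2% of all genes of the table, each likewise counted over all of its windows. The E2F letters were present in 15 of 18 S-phase members and 4 of 16 G2 and mitosis members, against 13.1% of all genes. The CCAAT letters were present in 16 of 18 and 16 of 16 members, against 39.7% of all genes. Per window, of which there were 35116, the shares were 15.2%, 11.0% and 34.6%. A match of letters is a description of the sequence and not a binding site.

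Below, 3 G2 and mitosis members with a CHR and 3 S-phase members with an E2F motif show this difference. Each line gives the 120 bases that end just before the start, 5′ to 3′ on the gene's strand, with the 3 motifs in capitals in either orientation. In MKI67 the CHR nearest the start and a CCAAT box in reverse orientation share a base, so they appear as 1 run of capitals.
CCNB2, chr15:59105026-59105145, plus strand: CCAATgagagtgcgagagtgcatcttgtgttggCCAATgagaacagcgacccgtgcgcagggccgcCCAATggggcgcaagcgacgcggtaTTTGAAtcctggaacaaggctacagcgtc
PLK1, chr16:23678769-23678888, plus strand: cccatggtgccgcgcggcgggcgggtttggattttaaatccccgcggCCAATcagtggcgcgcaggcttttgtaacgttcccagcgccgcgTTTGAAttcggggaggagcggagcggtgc
MKI67, chr10:128126424-128126543, minus strand: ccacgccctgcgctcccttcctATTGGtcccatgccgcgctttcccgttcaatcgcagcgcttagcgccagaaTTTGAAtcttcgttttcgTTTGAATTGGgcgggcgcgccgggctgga
DTL, chr1:212035628-212035747, plus strand: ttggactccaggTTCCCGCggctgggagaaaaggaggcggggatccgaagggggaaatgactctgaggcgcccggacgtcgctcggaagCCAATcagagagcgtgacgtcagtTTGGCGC
ZNF367, chr9:96418371-96418490, minus strand: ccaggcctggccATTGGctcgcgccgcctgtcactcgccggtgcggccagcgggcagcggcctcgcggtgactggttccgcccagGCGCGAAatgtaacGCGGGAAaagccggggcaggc
E2F1, chr20:33686386-33686505, minus strand: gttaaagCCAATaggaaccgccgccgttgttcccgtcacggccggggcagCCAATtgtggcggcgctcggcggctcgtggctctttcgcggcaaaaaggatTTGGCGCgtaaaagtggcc
The CHR stands 29 bases before the start in CCNB2, PLK1 and MKI67, with a further copy at 47 bases in MKI67. The E2F motifs stand 108 and 7 bases before the start in DTL, 35 and 21 in ZNF367 and 19 in E2F1.

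The 11 libraries (3 of the 2D culture, 3 with PD173074 and 5 without it) are not 11 samples. Any pair from 1 group had 99.263% to 99.872% of its cell barcodes in common, and any pair from 2 groups at most 0.737%. A library is therefore read here as a run over droplets sequenced before, each group counts as 1 sample, and differences between groups have no test. Values are means over runs, and the 95% intervals cover counting error only, not the spread between cultures. Intervals of levels and ratios treat UMIs as independent, so they also leave out the spread between cells. A run of the 2D culture held 43908067 to 46304366 UMIs (molecules counted once). Runs with PD173074 held 36127841 to 37765195 and runs without it 12266166 to 24495291. Run 3 without PD173074 was the shallowest. Among 8183, 4597 and 3534 filtered cells of the 2D culture, with PD173074 and without it, 7234, 2921 and 3068 were cardiomyocyte-like. These cells were named by summed cardiac markers in a clustering from which the members and 3 further lists of cell cycle genes had been left out. Cluster 9 also reached the cardiac threshold but was set aside, because MYH11, a marker of another class, was among its leading genes. That cluster held 558 cells with PD173074, 91 without it and 3 of the 2D culture. Different clusters made up the class in each group. Clusters 0 and 1 held most of it in the 2D culture and clusters 3, 4 and 6 with PD173074, while without PD173074 it was spread over several, of which cluster 2 was the largest with 1395 cells.

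In cardiomyocyte-like cells the G2 and mitosis list stood further apart between the groups than the S-phase list. Its summed level was 216 CPM (counts per 1000000 UMIs) in the 2D culture (211 to 221), 396 without PD173074 (387 to 405) and 626 with it (615 to 637). The summed level of the S-phase list was 434 CPM (427 to 441), 504 (496 to 517) and 566 (555 to 576) in the same order. The ratio with PD173074 to the 2D culture was thus 2.89-fold for G2 and mitosis and 1.30-fold for S phase. A gene was counted as higher when it reached 5 CPM in the higher group and the whole interval of its ratio lay beyond 1.5-fold. With PD173074 against the 2D culture 19 of 20 G2 and mitosis members and 5 of 22 S-phase members were higher, against 8.96% of all 12660 genes measured. Without PD173074 against the 2D culture the counts were 12 of 20 and 1 of 22, against 2.96% of 12443 genes. With against without PD173074 they were 6 of 20 and 0 of 22, against 5.24% of 12606 genes. The 3 comparisons share their samples in pairs and are not independent of each other. The members and the further lists were chosen with earlier results of these data known. The share over all genes is therefore a background and not an independent test. In none of them was a member lower by the same rule, which called 7.07%, 0.731% and 4.97% of all genes lower in the same order.

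**Figure D1:**
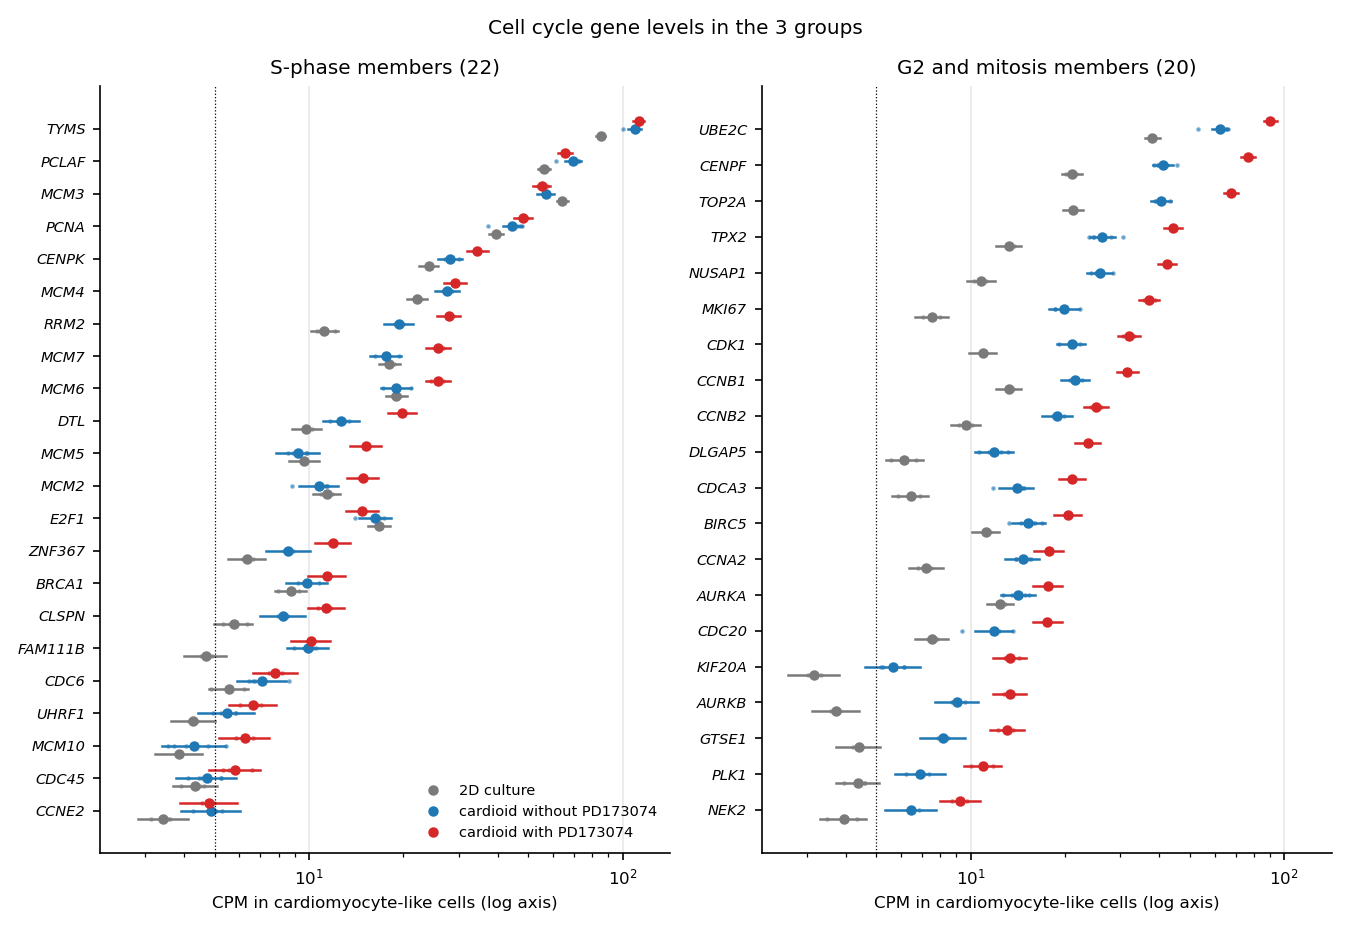
Level of each member in cardiomyocyte-like cells, in CPM on a log axis, with large points for the mean over runs, small points for single runs, lines for the 95% counting interval and a dotted line at 5 CPM. On the right, all 20 G2 and mitosis members stand in the order 2D culture, without PD173074, with PD173074, while on the left the points of several S-phase members lie on top of each other.

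All 20 G2 and mitosis members measured at 5 CPM had a higher mean level without PD173074 than in the 2D culture, and a higher mean level again with PD173074. The median log2 ratios of the list were 0.94 without PD173074 against the 2D culture, 1.56 with it against the 2D culture and 0.60 with against without it. The medians of all genes measured in these comparisons were 0.05, -0.02 and -0.07. For the S-phase list, the medians over members measured at 5 CPM were 0.30, 0.49 and 0.29. The 22 S-phase members lost 3, 1 and 1 genes to that floor.

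Chromosome structure and the chromosomal passenger complex were represented by MKI67, TOP2A and BIRC5. MKI67 (chromosome 10, 128096659 to 128126423) encodes the Ki-67 protein that coats mitotic chromosomes. Its level was 7.49, 7.06 and 8.02 CPM in the 3 runs of the 2D culture, 19.9, 18.6, 22.4, 19.8 and 18.7 without PD173074 and 35.9, 36.6 and 38.6 with it. The log2 ratio with against without PD173074 was 0.90 (0.71 to 1.09). The ratios to the 2D culture were 1.40 (1.17 to 1.64) without PD173074 and 2.30 (2.10 to 2.51) with it, the latter the largest of all members. TOP2A (chromosome 17, 40388525 to 40417896) encodes the topoisomerase that untangles sister chromatids. It stood at 21.1, 21.4 and 21.1 CPM in the 2D culture, 40.9, 39.1, 43.3, 39.9 and 38.9 without PD173074 and 66.5, 68.9 and 67.9 with it. Its log2 ratio with against without PD173074 was 0.75 (0.61 to 0.88). BIRC5 (survivin, of the passenger complex) stood at 11.2, 15.3 and 20.5 CPM in the 2D culture, without and with PD173074, and was called higher only with PD173074 against the 2D culture, at 0.87 (0.67 to 1.07).

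The 6 spindle and kinetochore members of the G2 and mitosis list gave the highest median ratio of the roles with against without PD173074, 0.82, and 4 of the 6 were higher. KIF20A (chromosome 5, 138179112 to 138187723), a kinesin of the central spindle, had the largest ratio of all members in that comparison. It stood at 3.15, 3.33 and 3.03 CPM in the 2D culture, 6.15, 5.55, 5.25, 5.20 and 6.12 without PD173074 and 14.2, 12.8 and 13.0 with it. The log2 ratio with against without PD173074 was 1.24 (0.90 to 1.59). DLGAP5, which stabilises kinetochore fibres, stood at 6.72, 5.58 and 6.18 CPM in the 2D culture, 11.7, 10.6, 12.5, 13.1 and 11.4 without PD173074 and 23.3, 24.3 and 23.5 with it. CENPF, a kinetochore protein, stood at 20.2, 21.2 and 21.7 CPM in the 2D culture, 38.6, 42.3, 45.4, 39.7 and 39.6 without PD173074 and 75.9, 78.2 and 75.5 with it. With against without PD173074 the log2 ratios of DLGAP5 and CENPF were 0.99 (0.76 to 1.24) and 0.90 (0.77 to 1.03). TPX2, which activates AURKA on the spindle, had a ratio of 0.75 (0.59 to 0.92) and was the remaining member called. NUSAP1 and GTSE1, which act on spindle microtubules, had ratios of 0.71 and 0.68 whose intervals reached below 1.5-fold. Between the cardioids without PD173074 and the 2D culture, NUSAP1 was among the members furthest apart. It stood at 11.0, 10.3 and 11.2 CPM in the 2D culture and 25.08, 26.3, 28.5, 25.04 and 24.2 without PD173074, a log2 ratio of 1.25 (1.05 to 1.45). With PD173074 it stood at 41.9, 42.8 and 42.5 CPM.

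Of CDK1 and its cyclins, 4 of 4 were higher with PD173074 and 3 of 4 without it than in the 2D culture, and none was called between the cardioid groups. CDK1 (chromosome 10, 60778331 to 60794852), the kinase that starts mitosis, stood at 11.0, 10.8 and 11.0 CPM in the 2D culture, 20.8, 21.0, 19.1, 21.7 and 22.3 without PD173074 and 33.1, 32.4 and 30.7 with it. Its log2 ratio with against without PD173074 was 0.61 (0.43 to 0.80), above 1.5-fold with an interval that reached below it. CCNB1 (chromosome 5, 69167150 to 69178245), cyclin B1, stood at 13.1, 13.1 and 13.6 CPM in the 2D culture, 21.7, 21.2, 22.6, 21.5 and 20.7 without PD173074 and 31.7, 31.5 and 31.8 with it. Its ratio without PD173074 against the 2D culture, 0.70 (0.50 to 0.90), did not pass the rule. CCNA2, cyclin A2, which is made from S phase on, differed least of this role between the cardioid groups, at 0.28 (0.04 to 0.52), and stood at 1.02 (0.77 to 1.28) without PD173074 against the 2D culture. CCNB2 gave 0.41 and 0.96 in the same comparisons.

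Of the 4 mitotic kinases, 3 were higher with PD173074 than in the 2D culture, 1 was higher without it, and none was called between the cardioid groups. AURKB, the kinase of the passenger complex, stood at 3.59, 3.84 and 3.73 CPM in the 2D culture, 9.60, 9.05, 9.02, 8.80 and 8.72 without PD173074 and 13.7, 12.8 and 13.5 with it. Its log2 ratio without PD173074 against the 2D culture was 1.28 (0.94 to 1.62). PLK1 and NEK2, kinases of centrosome separation and mitotic entry, were at 6.92 and 6.46 CPM without PD173074 and 10.9 and 9.26 with it. AURKA was the exception of the whole G2 and mitosis list. It stood at 12.3, 12.9 and 12.1 CPM in the 2D culture, 15.3, 13.6, 12.7, 14.9 and 14.4 without PD173074 and 17.8, 17.6 and 17.5 with it. Its ratio with PD173074 against the 2D culture, 0.50 (0.30 to 0.71), was the only one of the 20 that was not called. Runs of the 2D culture and of the cardioids without PD173074 overlapped.

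The members that drive ubiquitin tagging at the anaphase-promoting complex and mitotic entry, UBE2C, CDC20 and CDCA3, were higher with PD173074 than in the 2D culture in 3 of 3 cases. UBE2C stood at 38.0 CPM in the 2D culture, 62.5 without PD173074 and 90.5 with it. Its ratios were 0.72 (0.60 to 0.83) without PD173074 against the 2D culture and 0.53 (0.43 to 0.64) with against without it. CDC20 gave 0.66 and 0.57 and CDCA3 1.12 and 0.59 in these comparisons, of which the 1.12 of CDCA3 was called.

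**Figure D2:**
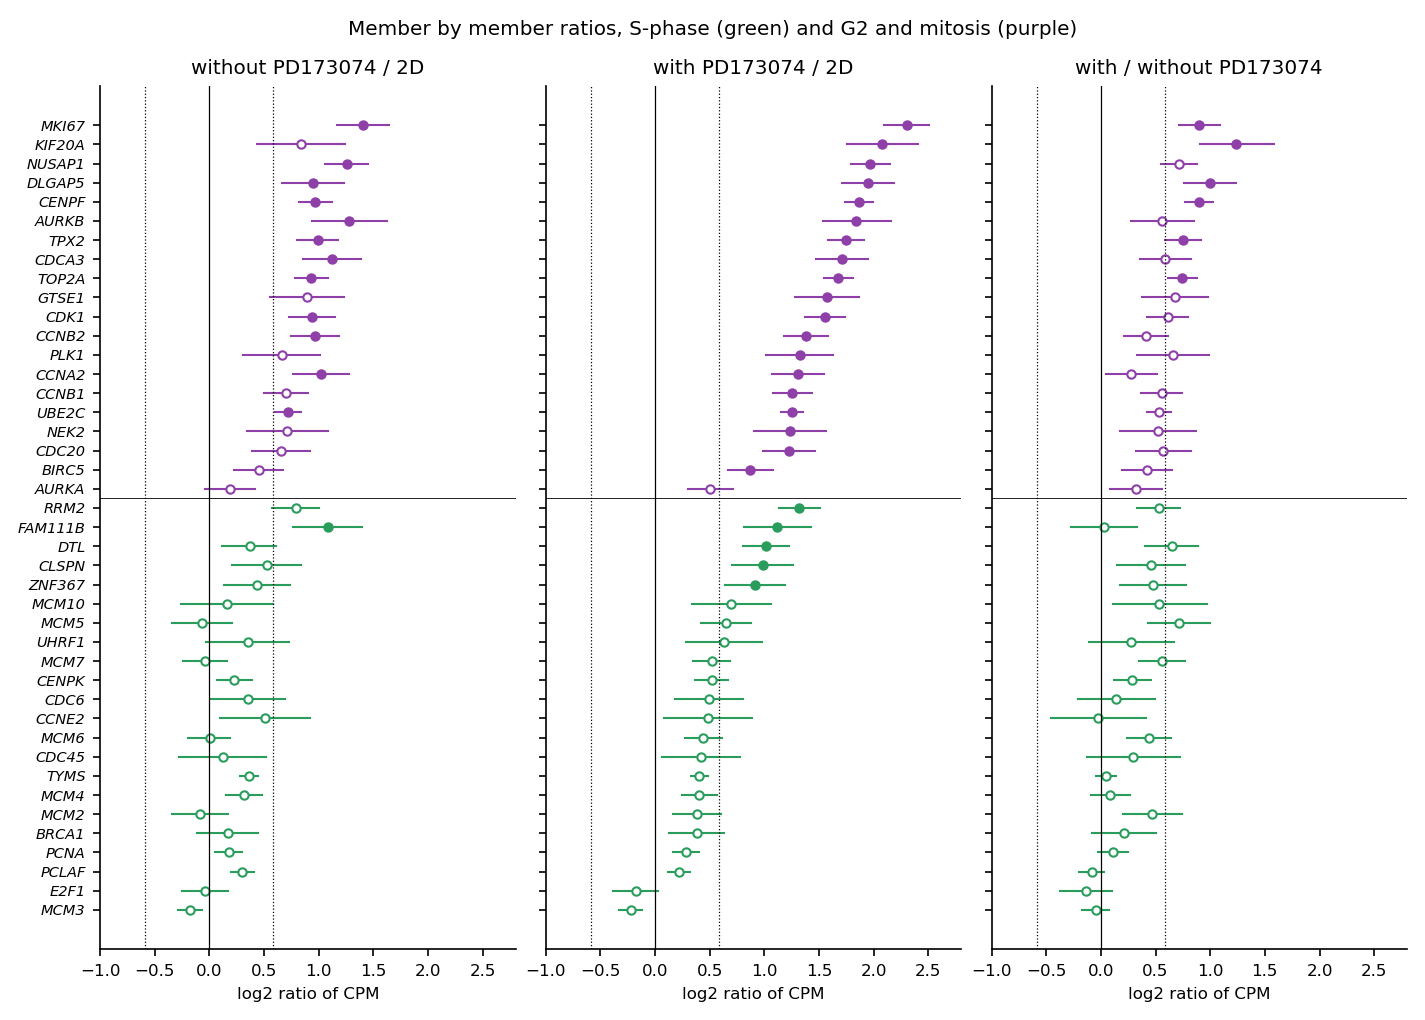
log2 ratio of CPM for each member in the 3 comparisons of cardiomyocyte-like cells, with lines for the 95% counting interval, filled points for members called higher and dotted lines at 1.5-fold. In the middle panel 19 of the 20 G2 and mitosis points (purple) are filled against 5 of 22 S-phase points (green), and in the right panel 6 purple points and no green point are filled.

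None of the 9 licensing and helicase members of the S-phase list was called in any comparison. MCM2 to MCM7 form the ring of the helicase that opens DNA, CDC6 helps to load it, CDC45 is part of its active form and MCM10 helps to activate it. Their median log2 ratio was 0.0013 without PD173074 against the 2D culture and 0.44 with against without it. MCM3 (chromosome 6, 52264015 to 52284742) stood at 62.7, 64.8 and 65.5 CPM in the 2D culture, 57.6, 55.6, 57.1, 57.1 and 57.5 without PD173074 and 54.7, 53.6 and 57.2 with it. The MCM3 level was thus lowest with PD173074, with a log2 ratio to the 2D culture of -0.22 (-0.33 to -0.12), which did not pass 1.5-fold. The other MCM genes ran from 0.38 (MCM2) to 0.70 (MCM10) in that comparison. Between the cardioid groups MCM5 gave 0.71 (0.43 to 0.999), MCM7 0.56 and MCM6 0.44, against -0.05 for MCM3 and 0.09 for MCM4.

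The 4 members of the fork and of nucleotide supply are PCNA, PCLAF, TYMS and RRM2. PCNA (chromosome 20, 5114953 to 5126622), the clamp that holds the polymerase, stood at 39.2, 39.6 and 39.6 CPM in the 2D culture, 44.4, 47.9, 37.4, 46.1 and 47.0 without PD173074 and 47.5, 49.7 and 47.1 with it. The groups overlapped, since run 3 without PD173074 lay below the 2D culture. TYMS (chromosome 18, 657653 to 673578), which makes thymidylate, stood at 85.4, 84.5 and 85.6 CPM in the 2D culture, 111, 112, 101, 112 and 111 without PD173074 and 113, 113 and 112 with it. Both cardioid groups lay above the 2D culture, at log2 ratios of 0.36 and 0.40, and 0.05 (-0.04 to 0.13) apart from each other. PCLAF, a partner of PCNA, differed by -0.08 (-0.20 to 0.03) between the cardioid groups. RRM2, the subunit of ribonucleotide reductase that limits the supply of nucleotides, went another way. It stood at 10.9, 12.1 and 10.6 CPM in the 2D culture, 19.6, 18.8, 19.4, 19.0 and 19.9 without PD173074 and 27.6, 28.9 and 27.4 with it. Its ratio with PD173074 against the 2D culture, 1.32 (1.13 to 1.51), was the largest of the S-phase list and was called.

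The 6 members grouped as replication control, checkpoint and repair include CENPK, which encodes a kinetochore protein. Of the 6, DTL, FAM111B and CLSPN were higher with PD173074 than in the 2D culture. FAM111B, a protease, stood at 4.89, 4.52 and 4.64 CPM in the 2D culture, 10.3, 10.1, 10.5, 9.65 and 8.97 without PD173074 and 10.4, 9.90 and 10.1 with it. The cardioid groups overlapped (0.03, -0.27 to 0.33), and FAM111B was the only S-phase member called without PD173074 against the 2D culture, at 1.08 (0.77 to 1.40). DTL, which directs the licensing factor CDT1 to degradation, stood at 9.56, 10.2 and 9.65 CPM in the 2D culture, 13.5, 13.1, 11.7, 12.7 and 12.4 without PD173074 and 19.5, 20.1 and 19.9 with it. Its ratio with PD173074 against the 2D culture was 1.01 (0.80 to 1.23). CLSPN, a checkpoint adaptor, gave 0.98 in that comparison, and BRCA1, CCNE2 and CENPK gave 0.38, 0.48 and 0.52 and were not called. CCNE2 did not reach 5 CPM in any group.

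The transcription and chromatin members are E2F1, UHRF1 and ZNF367. E2F1 (chromosome 20, 33675477 to 33686385), the activator of the S-phase wave, stood at 16.7, 16.5 and 16.8 CPM in the 2D culture, 17.4, 16.6, 14.1, 16.9 and 16.3 without PD173074 and 15.1, 14.5 and 14.7 with it. Its log2 ratio with PD173074 against the 2D culture was -0.18 (-0.38 to 0.03), and E2F1 and MCM3 were the 2 S-phase members below 0 there. ZNF367 was called in that comparison, at 0.91 (0.64 to 1.18). UHRF1, which maintains DNA methylation at the fork, gave 0.63 (0.28 to 0.98).

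Genes of the same phases outside the 42 were read from further lists. Of 53 other G2 and mitosis genes, 38 were higher with PD173074 than in the 2D culture, 9 without PD173074 than in the 2D culture and 7 with than without PD173074, among 51, 46 and 51 measured at 5 CPM. Over all genes the shares called higher in these comparisons were the 8.96%, 2.96% and 5.24% given above. The members furthest apart with PD173074 against the 2D culture were PIMREG at 2.17, KIF23 at 2.03, CKAP2L at 2.02 and NDC80 at 1.72. CKAP2L, KIF23, NDC80 and PIMREG were also furthest apart without PD173074 against the 2D culture, at 1.36, 1.34, 1.22 and 1.199. With against without PD173074 these were TROAP at 1.03, ARHGAP11A at 1.01, PIMREG at 0.98 and KIF2C at 0.95. Of 49 other G1/S and S-phase genes, 4 were higher with PD173074 than in the 2D culture, namely BRIP1 at 1.55, CDT1 at 0.94, HELLS at 0.80 and RFC3 at 0.74. The helicase BRIP1 was also the 1 gene of that list higher with than without PD173074, at 47.9 against 24.98 CPM (0.94, 0.77 to 1.11), and 0 were higher without PD173074 than in the 2D culture. With 46, 43 and 46 genes of that list measured at 5 CPM, its share called was near or below that over all genes in each comparison. Of 18 genes of the E2F, RB and DREAM machinery, 4 were higher with PD173074 than in the 2D culture: E2F7 at 1.47, FOXM1 at 1.43, MYBL2 at 1.06 and E2F8 at 0.98. E2F8 was also higher with than without PD173074, at 57.6 against 31.8 CPM (0.86, 0.71 to 1.004). No gene of these 3 lists was lower in any comparison.

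At the level of single cells, G2 and mitosis transcripts lay in few cells and S-phase transcripts in many. Each cell was thinned to 2000 UMIs, which left on average 6585, 2661 and 2832 cardiomyocyte-like cells per run of the 2D culture, with PD173074 and without it. The 5% of cells richest in G2 and mitosis members held 83.3%, 84.6% and 89.6% of their UMIs, and the 5% richest in S-phase members 46.9%, 47.6% and 52.0%. At least 2 UMIs of G2 and mitosis members were found in 3.66% of cells in the 2D culture (3.22 to 4.14), 7.16% with PD173074 (6.23 to 8.23) and 5.04% without it (4.27 to 5.92). Without thinning these shares were 6.81%, 13.1% and 8.79%, at median depths of 4088, 5756 and 5528 UMIs. At least 2 UMIs of S-phase members were found in 13.4% (12.6 to 14.3), 15.6% (14.2 to 17.0) and 13.4% (12.1 to 14.7) of cells, and in 27.1%, 34.3% and 29.3% without thinning. At this cut the G2 and mitosis intervals did not overlap. The S-phase intervals overlapped between all 3 groups, but only narrowly between the 2D culture and the cardioids with PD173074. These intervals count cells of 1 sample per group, so neither overlap nor its absence tells whether cultures differ. Other cuts gave other overlaps. With at least 5 UMIs of G2 and mitosis members the shares were 1.90% in the 2D culture (1.58 to 2.26), 4.73% with PD173074 (3.96 to 5.61) and 3.40% without it (2.75 to 4.12). There the intervals of the cardioid groups overlapped. At least 5 S-phase UMIs were found in 4.17% of cells in the 2D culture (3.69 to 4.67). The shares were 6.56% with PD173074 (5.66 to 7.59) and 5.38% without it (4.57 to 6.26). Here the intervals of the 2D culture and the cardioids with PD173074 did not overlap. At least 1 G2 and mitosis UMI was found in 10.96% (10.2 to 11.7), 15.4% (14.1 to 16.8) and 11.7% (10.5 to 12.9), with overlap between the 2D culture and the cardioids without PD173074.

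No class of cells here can be taken to lack all dividing cells, so a background level was read from cells with at most 1 UMI of the other members. In a cell thinned to 2000 UMIs such a low count does not show that the rest of the programme is absent. In those cells MKI67 was found in 0.0362% to 0.155% over the groups, against 0.937% to 3.01% of all thinned cardiomyocyte-like cells. TOP2A was found in 0.232% to 0.417%, against 2.08% to 4.55%. For some members the contrast was much smaller. MCM3 was found in 6.58% to 8.26% of cells with at most 1 other member UMI, against 9.06% to 10.7% of all cells, and 56.8% to 62.9% of its UMIs lay in such cells. For MCM4 that share was 51.9% to 63.0%, for PCNA 46.2% to 53.6% and for AURKA 42.2% to 64.2%. For MKI67, RRM2, NEK2 and AURKB it was at most 5.61%. The levels of MCM3, MCM4, PCNA and AURKA in CPM therefore came in large part from cells with little else of the programme detected. Those of MKI67, RRM2, NEK2 and AURKB came mostly from cells with more of the other members. Cells with at most 1 UMI of all members were 5514 of 6585 in the 2D culture, 2149 of 2661 with PD173074 and 2382 of 2832 without it. Even for MCM3, MCM4, PCNA and AURKA the share of UMIs thus lay below the share of cells.

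Taking 5 UMIs as the mark of a cell rich in a list, cells fell into S phase only, both lists, or G2 and mitosis only. Rich in S-phase members alone were 3.70% of cells in the 2D culture (3.26 to 4.19), 4.42% with PD173074 (3.68 to 5.29) and 3.70% without it (3.04 to 4.47). Rich in both were 0.466% (0.320 to 0.668), 2.14% (1.63 to 2.77) and 1.68% (1.25 to 2.24). Rich in G2 and mitosis members alone were 1.43% (1.16 to 1.74), 2.59% (2.02 to 3.27) and 1.72% (1.28 to 2.28). The share rich in both lists was lowest in the 2D culture, with an interval apart from both cardioid groups. Those intervals also leave out the spread between cultures. Of the cells rich in S-phase members, 11.2% in the 2D culture (7.82 to 15.7) were also rich in G2 and mitosis members, against 32.6% with PD173074 (25.7 to 40.1) and 31.2% without it (24.1 to 39.4). The cut falls within a range and not at a gap, since 1.34%, 1.55% and 1.15% of cells had exactly 4 S-phase UMIs and 1.01%, 1.57% and 0.945% exactly 5.

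**Figure D3:**
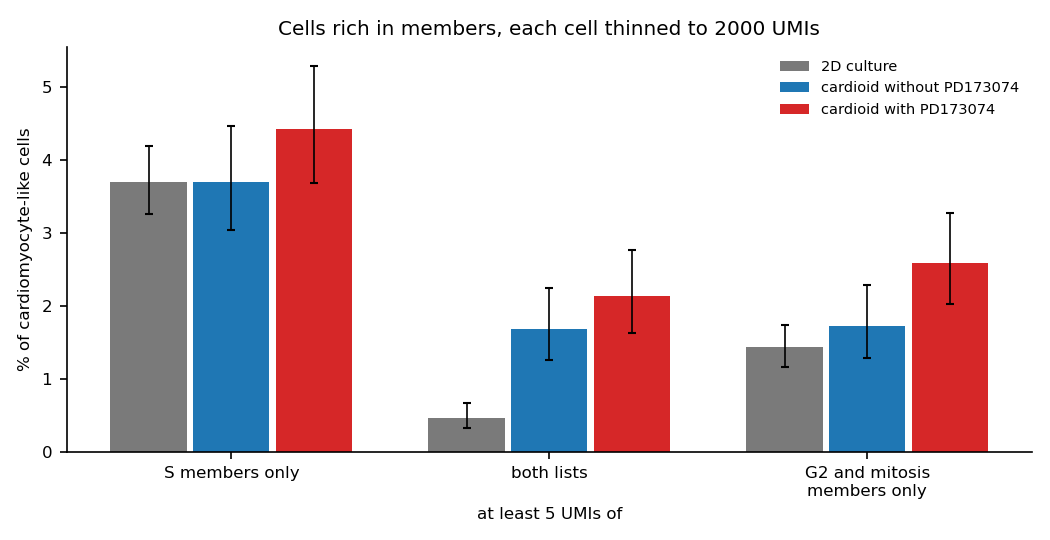
Share of cardiomyocyte-like cells with at least 5 UMIs of S-phase members only, of both lists, or of G2 and mitosis members only, each cell thinned to 2000 UMIs. Bars are means over runs, error bars are exact 95% binomial intervals, and the middle bars run from 0.466% in the 2D culture to 2.14% with PD173074.

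Members also differed in how well they marked their own phase. In cells rich in S-phase members with under 2 UMIs of the other list, TYMS was found in 60.5%, 54.5% and 61.4% of cells of the 2D culture, with PD173074 and without it. In cells rich in G2 and mitosis members with under 2 UMIs of S-phase members, TYMS itself left out of the count, it was found in 54.7%, 52.8% and 55.7%. TYMS thus stood almost equally in both kinds of cells, though it is listed with S phase. PCLAF stood at 56.6%, 44.0% and 60.0% in the first kind and 19.5%, 31.0% and 26.5% in the second. RRM2 stood at 11.4%, 14.6% and 9.31% against 6.71%, 14.2% and 12.2%. The other 19 S-phase members had at most 12.7% in the second kind. Of the G2 and mitosis members, none had more than 10.9% in the first kind, and CENPF had 71.1%, 80.5% and 82.2% in the second. By their highest group, NUSAP1, TOP2A and CDK1 led in the first kind, at 10.9% with PD173074, 10.5% without it and 10.4% with it. Counted with all members of each list, these kinds of cells numbered 190, 91 and 81 of S phase on average per run. Those of G2 and mitosis numbered 48, 32 and 23. The cells behind the share of a single member can differ, since its own UMIs were left out there.

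**Figure D4:**
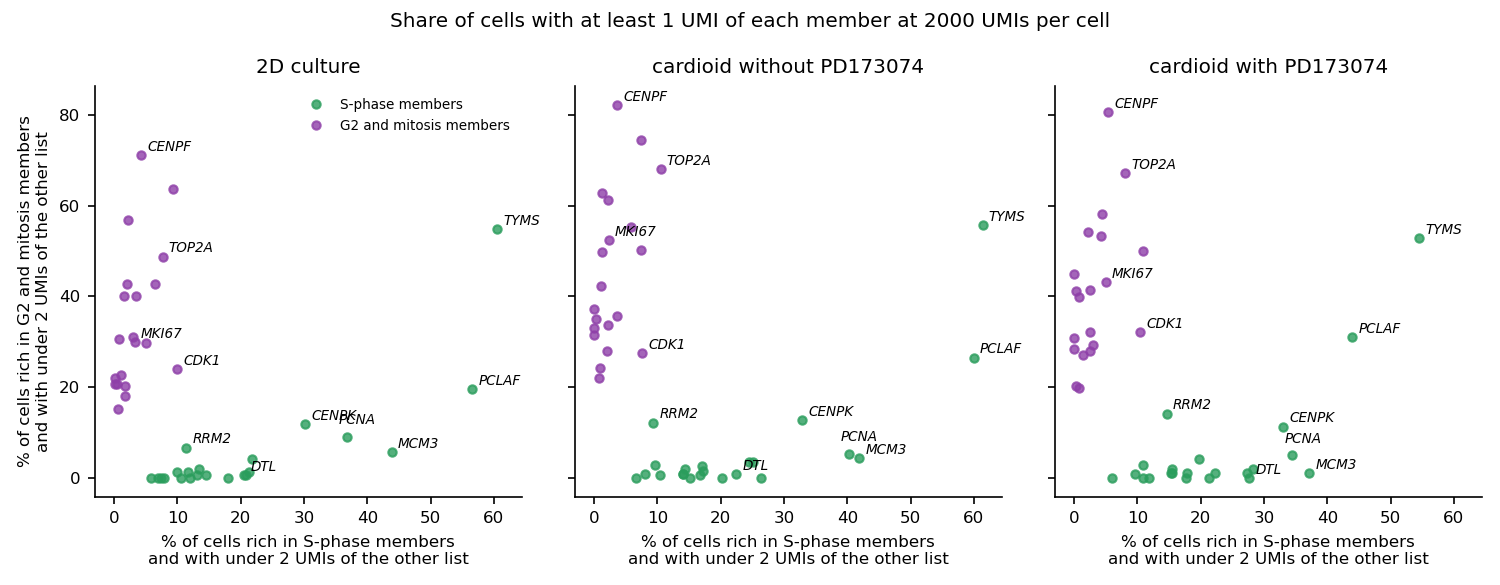
Share of cells with at least 1 UMI of each member among cells with at least 5 UMIs of the other S-phase members and under 2 of G2 and mitosis members (x axis, percent), and among cells with at least 5 UMIs of the other G2 and mitosis members and under 2 of S-phase members (y axis, percent), with 1 panel for each group. S-phase members (green) lie along the x axis and G2 and mitosis members (purple) along the y axis, with TYMS near 55% to 61% on x and 53% to 56% on y.

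The cells rich in G2 and mitosis members were deeper and held somewhat less of the summed cardiac markers. They had a median of 5973 UMIs in the 2D culture, 9275 with PD173074 and 7224 without it, against 4246, 6067 and 5099 in cells under 5 UMIs of both lists. TNNT2, cardiac troponin T, stood at 1365, 1499 and 1877 CPM in them against 2111, 2914 and 3144. The summed cardiomyocyte markers stood at 15930, 25354 and 20233 CPM against 18974, 30838 and 23077. The summed stromal markers stood at 223, 421 and 175 CPM against 259, 498 and 217. COL1A1 of the stromal list went the other way, at 19.4, 42.1 and 16.5 CPM against 16.1, 26.1 and 11.5. Doublets were not removed, and the part of doublets in the deeper cells was not tested.

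Cluster 8 was led by cell cycle genes, most of them on the lists left out of the clustering. The histone gene HIST1H1B, also among its leading genes, was not on those lists. It held 4.70% of cardiomyocyte-like cells in the 2D culture (4.22 to 5.21), 4.998% with PD173074 (4.24 to 5.85) and 5.77% without it (4.97 to 6.65), and 78.0%, 84.9% and 87.8% of the G2 and mitosis UMIs. These shares of cells overlapped between the 3 groups, while the summed G2 and mitosis level within the cluster was 2793, 7636 and 4697 CPM. The summed S-phase level within it was 2743, 2755 and 3509 CPM. Cells rich in S-phase members alone were placed there unevenly, with 61.3% of them in the 2D culture, 12.7% with PD173074 and 57.3% without it. With the cluster left out, the summed G2 and mitosis level was 50.7, 102 and 52.1 CPM, and the summed S-phase level 286, 402 and 264 CPM.

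The difference between the cardioid groups depended on which cells were counted and on how they were weighted. Over all cells instead of cardiomyocyte-like ones, 2 of 20 G2 and mitosis members were higher with than without PD173074, against 6.42% of all genes. With each cell weighted equally 0 of 20 were, a setting for which the share of all genes is not given. Counting the set-aside cluster as cardiomyocyte-like also gave a smaller ratio of the sum and fewer members called, as listed under the processing. In each of these settings the G2 and mitosis sum stayed higher with PD173074 than without it. Clusters in which most cells came from another sample held 54.5% of the cardiomyocyte-like class without PD173074. When such cells were left out of every group and cluster 8 was kept, the summed level with against without PD173074 gave log2 ratios of -0.08 for G2 and mitosis and -0.25 for S phase, with 0 members called higher (against 5.75% of all genes) and 0 lower (against 5.93%). Within single clusters the direction varied. The ratio of the G2 and mitosis sum was 0.70 (0.66 to 0.75) in cluster 8, which held most of these transcripts, 0.23 (-0.12 to 0.61) in cluster 3, -0.46 (-0.74 to -0.17) in cluster 4 and -0.24 (-0.57 to 0.10) in cluster 6. The ratio of the S-phase sum was -0.35 (-0.41 to -0.29), 0.26 (0.10 to 0.43), 0.09 (-0.07 to 0.26) and -0.29 (-0.46 to -0.12) in the same clusters. Cluster 8 was not the same mix of cells in both groups. Of the cells rich in S-phase members alone, it held 12.7% with PD173074 and 57.3% without it. The part of this in the ratios of cluster 8 was not tested.

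The difference between the cardioids and the 2D culture depended on the cell set as well. Over all cells, 13 of 20 G2 and mitosis members were higher without PD173074, against 4.24% of all genes, and 19 of 20 with it, against 10.6%. When clusters were cut more finely or no cell filter was used, however, large clusters of the 2D culture were set aside because 1 marker of another class stood among their leading genes. The 2D class then held 3188 or 3391 cells instead of 7234, and the ratio of the G2 and mitosis sum without PD173074 to the 2D culture was -0.07 or -0.13. It was 0.04 with cluster 8 left out, and 1.62 without cells of clusters mostly of another sample but with cluster 8. With the finer clusters or no cell filter the ratio with PD173074 was 0.31 or 0.14, with 2 or 1 members higher. The share of all genes called is not given for these settings. In the 5 clusters with at least 50 cells of both groups, the ratio without PD173074 to the 2D culture was 0.75 (0.70 to 0.80) in cluster 8, -0.46 (-0.75 to -0.18) in cluster 0, -0.09 (-0.51 to 0.29) in cluster 1, 0.50 (-0.36 to 1.51) in cluster 2 and -0.56 (-1.31 to 0.27) in cluster 3. Clusters 2 and 3 held only 71 and 79 cells of the 2D culture.

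Between the cardioid groups, the G2 and mitosis sum was lower with PD173074 in cartilage-like and epithelial-like cells and higher with it in endoderm-like cells and the set-aside cluster. In cartilage-like cells the summed G2 and mitosis level was 467 CPM in the 2D culture (431 to 505), 1057 without PD173074 (989 to 1134) and 670 with it (646 to 694). With against without PD173074, 19 of 20 of these members lay below 0 there, and CDC20 at -1.52 (-2.04 to -0.99) and UBE2C at -1.05 (-1.29 to -0.80) were called lower, against 0.708% of all genes. The S-phase sum in cartilage-like cells was 799 CPM in the 2D culture, 586 without PD173074 and 638 with it. In epithelial-like cells, present in the cardioids only, the G2 and mitosis sum was 1200 CPM without PD173074 (1115 to 1292) and 882 with it (859 to 905), and MKI67 was lower at -1.09 (-1.54 to -0.61), against 0.216% of all genes. Endoderm-like cells gave 46.2 CPM without PD173074 (31.9 to 65.3) and 296 with it (262 to 333), from 74 and 57 cells. With PD173074, only 1.89% of the 53 endoderm-like cells thinned per run on average held at least 5 G2 and mitosis UMIs. Stromal-like cells gave 182 CPM in the 2D culture (173 to 191) and 65.3 in the 66 cells without PD173074 (51.7 to 82.4). The cluster set aside, led by SHOX2 and MYH11 among others, gave 84.4 CPM without PD173074 (59.3 to 120) and 146 with it (135 to 158). Whether the direction differs between classes was not tested, since each group is 1 sample.

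**Figure D5:**
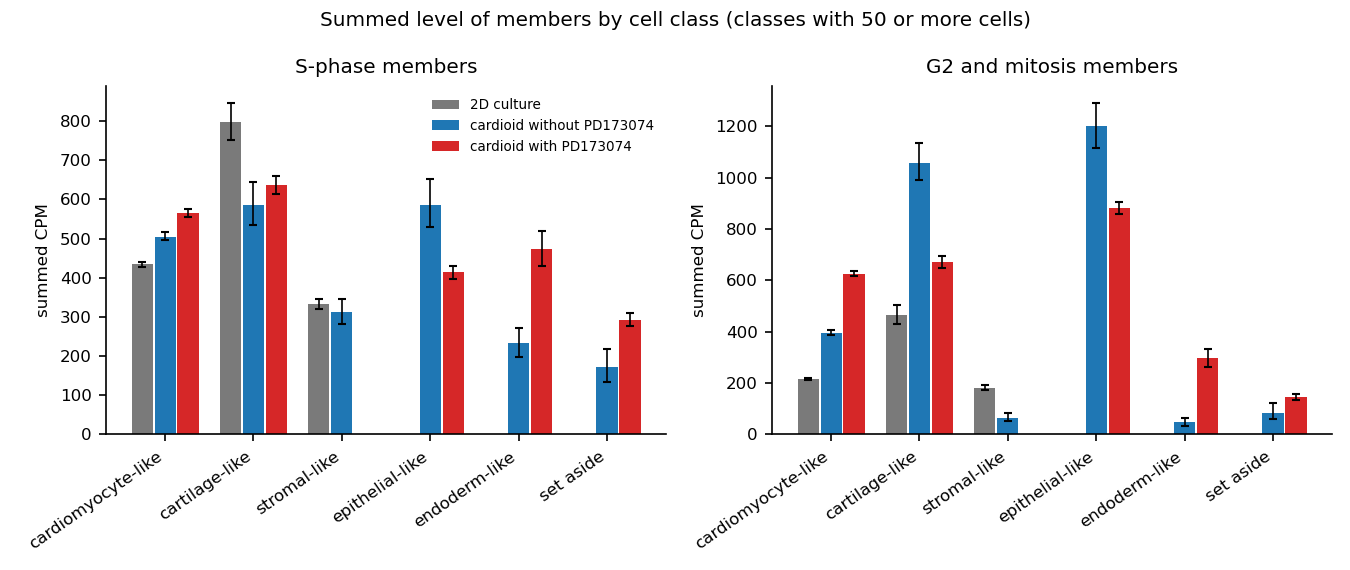
Summed CPM of the S-phase members (left) and the G2 and mitosis members (right) by cell class and group, for classes of at least 50 cells, with error bars for the 95% counting interval. In cardiomyocyte-like cells the highest bars are those with PD173074, while cartilage-like and epithelial-like cells have their highest G2 and mitosis bars without PD173074.

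Members with and without a promoter motif overlapped in these values. The values here are log2 ratios with PD173074 against the 2D culture. The 11 G2 and mitosis members with the letters TTTGAA had a median of 1.68 (range 1.23 to 2.30). The 5 without these letters had 1.30 (1.23 to 2.08), and all 16 were called. Variants of the CHR were not searched. The 15 S-phase members with an E2F motif had a median of 0.44 (-0.22 to 1.32) and the 3 without one 0.52 (0.42 to 0.70).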

How the data were processed

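RNA of single cells was captured at its 3′ end in 11 libraries of 3 groups. The deposited tables hold the authors' raw UMI counts for every gene and barcode. The submitters' processing notes name Cell Ranger 7.0.0 and hg38. For the annotation, the release was not given in the sources used here, and the labels' protocols do not tie a chemistry version to each library. Since libraries of a group shared their barcodes, groups were compared without a test. Cells were barcodes present in every run that averaged 1000 UMIs and 500 genes or more and at most 30% mitochondrial UMIs. No doublet caller was run.

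Clusters came from scanpy 1.11.5 and leidenalg 0.10.2 (2000 variable genes without listed cell cycle, mitochondrial and ribosomal protein genes, 30 components, 15 neighbours, resolution 0.6, seed 0). A cluster was cardiomyocyte-like at 10000 CPM or more of the summed cardiac markers, and was set aside where another class had more markers among its 10 leading genes. Other classes needed 3 markers among the 100 leading genes. CPM were computed here from the deposited counts. Intervals are exact at 95% (Poisson for levels, conditional binomial for ratios, Clopper-Pearson for shares) on the mean count of a run, since runs repeat the same molecules. The call rule was run on simulated counts drawn independently for each gene, without spread between cells or cultures. That check cannot show how often the rule errs in these data.

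Genes named with every run were MKI67, TOP2A, CDK1, PCNA, MCM3, TYMS, E2F1, CCNB1 and, for each comparison and phase, the 3 called members with the largest ratio. From other lists up to 4 called genes were named. CENPF and AURKA were added by run after their values were seen. The members and lists were chosen with earlier results of these data known. Alternatives were other scalings, cell filters, resolutions, cell sets, floors and folds, each run left out, and other thinning depths.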

Additional observations from a re-analysis of the deposited data

Results flagged for a closer look

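In the 5 runs of the cardioids without PD173074, 44 levels were checked, those of the 42 members and the 2 list sums in cardiomyocyte-like cells. In 8 of them the highest or lowest run stood far from the other 4. Chance gives such a gap in about 1 group of 20 when runs are independent and equally noisy. These runs repeat the same droplets at unequal depth, and the levels share cells, so that rate does not apply here. Run 3, the shallowest, was that run in 7 cases. It was the lowest for the S-phase sum, at 480 CPM against a median of 508, and for TYMS (101 against 111), PCLAF (61.3 against 70.9), MCM2 (8.82 against 11.3), UBE2C (53.0 against 65.2) and CDCA3 (11.8 against 14.5). It was the highest for CDC6, at 8.62 CPM against a median of 6.73. Run 2 was the lowest for MCM3, at 55.6 against 57.1 CPM. Without run 3 the log2 ratio of the S-phase sum with against without PD173074 was 0.15 instead of 0.17, and 7 instead of 6 G2 and mitosis members were higher.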

How the results depend on the processing

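No paired analysis was possible because the libraries that share a replicate number are runs of different samples, each group is 1 sample, and no result comes from a test. In each group of values below, the order is with against without PD173074, without PD173074 against the 2D culture, and with PD173074 against the 2D culture. For shares it is the 2D culture, with PD173074 and without it. Of the values not given below, 20 list medians and counts of lower members moved without a change of direction, and the others stayed within their counting interval or, for a count, within 1.5 times. The main values were log2 sums of 0.17, 0.21 and 0.38 for S phase and 0.66, 0.87 and 1.53 for G2 and mitosis. The members called higher were 0, 1 and 5 of S phase and 6, 12 and 19 of G2 and mitosis. For most settings below, the share of all genes called in the same setting is not given. Their counts of members higher are therefore not read as results about the members. Where a cause is not named below, it was not tested.

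Leaving out 1 run at a time gave log2 sums of 0.15 to 0.17, 0.21 to 0.23 and 0.37 to 0.39 for S phase and 0.66 to 0.67, 0.87 to 0.88 and 1.53 to 1.54 for G2 and mitosis. The members higher were 0, 1 to 2 and 5 of S phase and 5 to 7, 11 to 12 and 19 of G2 and mitosis. The 2 S-phase members came without run 2 of the 2D culture.

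With no cell filter, fewer cells of the 2D culture stayed in the class (3391). The S-phase sums were 0.0165, -0.37 and -0.35, with medians of -0.40 and -0.29 against the 2D culture and 0 and 0 members higher there. The G2 and mitosis sums were 0.27, -0.13 and 0.14, with a median of -0.0886 without PD173074 against the 2D culture and 0, 0 and 1 members higher. Cells with at least 2 UMIs were 18.8% (S phase, 2D culture), 7.91% (G2 and mitosis, 2D culture) and 5.97% (G2 and mitosis, without PD173074). At clustering resolution 1.0 the 2D class held 3188 cells. The S-phase sums were -0.0026, -0.31 and -0.32, with medians of -0.35 and -0.22 against the 2D culture and 0 and 0 members higher there. The G2 and mitosis sums were 0.38, -0.0659 and 0.31, with a median of -0.0546 without PD173074 against the 2D culture and 1, 0 and 2 members higher. The same 3 shares were 18.1%, 7.26% and 5.96%.

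Without cells in clusters mostly of another sample, which also removed cluster 8 from both cardioid groups, the S-phase sums were 0.78, -0.89 and -0.11, with 11, 0 and 0 members higher and a median of -0.80 without PD173074 against the 2D culture. The G2 and mitosis sums were 1.22, -2.31 and -1.10, with 0 and 0 members higher and medians of -2.55 and -1.04 against the 2D culture. Shares with and without PD173074 were 12.2% and 7.74% for S phase and 2.64% and 0.974% for G2 and mitosis. With cluster 8 kept, the sums of the first 2 comparisons were -0.25 and 0.64 for S phase and -0.0822 and 1.62 for G2 and mitosis. The medians with against without PD173074 were -0.20 for S phase and -0.0878 for G2 and mitosis. Members higher were 8 of S phase (without PD173074 against the 2D culture) and 0 and 19 of G2 and mitosis, and the shares without PD173074 were 16.5% and 8.46%. This setting, the next one and the one that counts the set-aside cluster were chosen after seeing the data.

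Without cluster 8 the S-phase sums were 0.61, -0.12 and 0.49, with 9 and 0 members higher in the first 2 comparisons and a median of -0.10 without PD173074 against the 2D culture. The G2 and mitosis sums were 0.97, 0.0385 and 1.004, with 0 and 6 members higher against the 2D culture. Shares were 9.87%, 12.2% and 8.80% for S phase and 0.894%, 2.66% and 1.06% for G2 and mitosis.

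For the settings in the rest of this paragraph, sums and counts are given first with against without PD173074 and then with PD173074 against the 2D culture. The S-phase sums were 0.0673 and 0.30 without the 5% of cells with most UMIs, 0.0851 and 0.28 at resolution 0.3, 0.0806 and 0.26 over all cells and 0.0511 and 0.25 with the set-aside cluster counted. The G2 and mitosis sums were 0.41 and 1.29, 0.50 and 1.35, 0.57 and 1.47, and 0.46 and 1.31, and 1, 3, 2 and 1 of these members were higher with than without PD173074. S-phase members higher than in the 2D culture were 2 without the deepest cells (without PD173074), and 2 over all cells and 3 with the set-aside cluster (with PD173074). With each cell weighted equally the S-phase sum with PD173074 against the 2D culture was 0.34, the G2 and mitosis sums were 0.48, 0.93 and 1.41, 0 of these members were higher with than without PD173074, and 2 S-phase members were higher without PD173074 than in the 2D culture.

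Median-of-ratios scaling gave 0.24 and 0.16 for S phase and 0.73 and 0.82 for G2 and mitosis in the first 2 comparisons, and CPM without mitochondrial and ribosomal protein genes 0.21 and 0.16, and 0.71 and 0.82. At 1.2-fold 4, 3 and 12 S-phase members were higher, and 15 of G2 and mitosis with against without PD173074. At 2-fold 0 and 1 S-phase members were higher than in the 2D culture, and 0 and 2 of G2 and mitosis in the first 2 comparisons. Without PD173074 against the 2D culture 2 S-phase members were higher with intervals from counts summed over runs and 0 with a floor of 10 CPM.

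The shares depend on depth by construction. Thinned to 1000 UMIs they were 7.32%, 9.94% and 8.20% for S phase and 2.30%, 5.83% and 3.99% for G2 and mitosis. Thinned to 3000 UMIs they were 19.5%, 21.0% and 18.5%, and 5.01%, 8.69% and 6.43%. At least 1 UMI was found in 34.7%, 35.3% and 33.5%, and 11.0%, 15.4% and 11.7%, and at least 3 in 7.82%, 10.4% and 8.51%, and 2.60%, 5.82% and 4.10%.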
